A study of Homo sapiens with 18 samples.

Results

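Transcript levels after PIK75 were set against those after BGT226 in NCI-H295R cells, an established human line from an adrenocortical carcinoma that secretes steroids. The 6 libraries, of 18 in the series, were taken by their labels alone: 3 biological replicates of cells given PIK75 and 3 of cells given BGT226, each compound at a stated 20 nM for 48 h. As further groups, 3 libraries of STA9090+PIK75 and 3 of STA9090+BGT226 gave the same contrast in cells that also received STA9090, also called ganetespib, which inhibits the chaperone HSP90, and 3 libraries of untreated cells served as the background. The doses used inside the combinations, the vehicle and any handling batch were not stated, and the labels hold no measure of how far either compound blocked its target. All groups were of this line alone. Of 58870 genes in the table of counts, 15787 had enough counts to be tested.

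Phosphoinositide 3-kinases (PI3K) make a membrane lipid that recruits the kinase AKT. AKT holds the FOXO transcription factors out of the nucleus and, with nutrients, turns on the kinase complex mTORC1, which promotes ribosome production, translation of messengers that begin with a pyrimidine tract, sterol and fatty acid synthesis through SREBP, and amino acid synthesis through the transcription factor ATF4. PIK75 is known as an inhibitor of the alpha form of PI3K that has also been reported to inhibit CDK9, a kinase of transcription elongation, and the DNA repair kinase DNA-PK. BGT226 is known as an inhibitor of PI3K and mTOR together. In the adrenal cortex, steroid synthesis starts from cholesterol and is driven by corticotropin through the factor NR5A1, and adrenocortical carcinomas often carry high IGF2, a ligand of the insulin and IGF receptors that lie above PI3K.

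Library totals ran from 12.54 to 13.39 M counts with PIK75, from 10.24 to 21.13 M with BGT226 and from 10.46 to 15.51 M in untreated cells. Along the leading principal component of the 6 libraries, which held 48.3% of the variance, the PIK75 libraries lay at -28.15, -27.9 and -34.17 and the BGT226 libraries at 32.31, 28.43 and 29.49. PIK75 replicate 3 stood apart on the next component (17.1% of the variance), at -34.25 against 23.29 and 14.59 in PIK75 replicates 1 and 2. That library had 38.92% of its counts in abundant RNA polymerase III transcripts, against 28.64% to 40.35% over all 18 libraries. The 8 defining adrenocortical markers were all measured, and their summed level was 1294 to 1486 CPM (counts in each 1 M counts after TMM scaling) with PIK75, 2022 to 2141 with BGT226 and 2096 to 2520.5 in untreated cells. Between the compounds CYP21A2 had by far the largest gap in CPM, at 300 to 374 with PIK75 and 889 to 947 with BGT226. NR5A1 overlapped, at 482 to 582 and 524 to 556. Of 18 neuroendocrine markers 9 were measured, with sums of 164 to 169 CPM with PIK75, 194 to 213 with BGT226 and 153 to 176 in untreated cells, and TH, PHOX2A, SLC18A1 and SLC18A2 were at 0. Most of each sum was NCAM1, at 123 to 130, 142 to 158 and 104 to 121 CPM in PIK75, BGT226 and untreated libraries. Of 18 markers of fibroblasts, endothelium and leukocytes 3 were measured, with sums of 7.19 to 9.59, 10.1 to 10.9 and 9.81 to 14.3 CPM in PIK75, BGT226 and untreated libraries, and LUM, CDH5 and CD3E were at 0.

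The compounds left the cells with widely different transcript levels. Most listed genes of mitosis were higher with PIK75 (34 of 37), as were most genes listed as ATF4 targets (22 of 27). So were most tRNA synthetases (14 of 20), genes of cholesterol synthesis and uptake (19 of 25) and proteasome subunits (21 of 32). Most listed hosts of small nucleolar RNAs were lower with PIK75 (12 of 17), as were most ribosomal protein and elongation factor genes (28 of 49). The same held for most genes listed as FOXO targets and receptors (15 of 26) and most feedback regulators of the ERK pathway (10 of 14). The lists were chosen with earlier results of these data known. With PIK75 over BGT226, 2603 genes (16.5% of those tested) were higher and 2442 (15.5%) lower at an adjusted p under 0.05 by edgeR's quasi-likelihood test with Benjamini-Hochberg adjustment, 32.0% in either direction. Of these, 283 were higher and 365 lower by at least 2-fold in the fit. In 7469 genes (47.3%) the 3 PIK75 libraries and the 3 BGT226 libraries did not overlap in CPM after TMM scaling. The replicates are labelled as biological. The test sets a difference against the spread between replicates of a group, estimated from all 18 libraries together. Without PIK75 replicate 3, 2224 genes were higher and 2023 lower, and none of the 33 list counts of at least 5 moved by over 1.5 times. Where a list count is given as 0 below, at most 1 of its genes had an unadjusted p under 0.05 in that direction, and between the compounds DESeq2 called 0; the exception is the abundant RNA polymerase III transcripts, with 4 and 1.

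Most genes that were not called were bounded rather than unmeasured. Of the 10742 genes with no call, 8451 (78.7%) had a 95% interval of the log2 fold change that lay within 2-fold either way, and 2285 had one within 1.25-fold. At the other end, 156 called genes had an interval that lay wholly beyond 2-fold. Protein-coding genes were called higher in 19% and lower in 16.3% of 13009, and genes of other types were higher in 4.68% and lower in 11.4% of 2778. In the text, a log2 fold change is PIK75 over BGT226 unless another pair is named, a positive value means higher with PIK75, and values of a library are CPM, which compare libraries and not genes. In bulk libraries, fewer cells that hold a transcript and less of it per cell cannot be told apart.

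**Figure D1:**
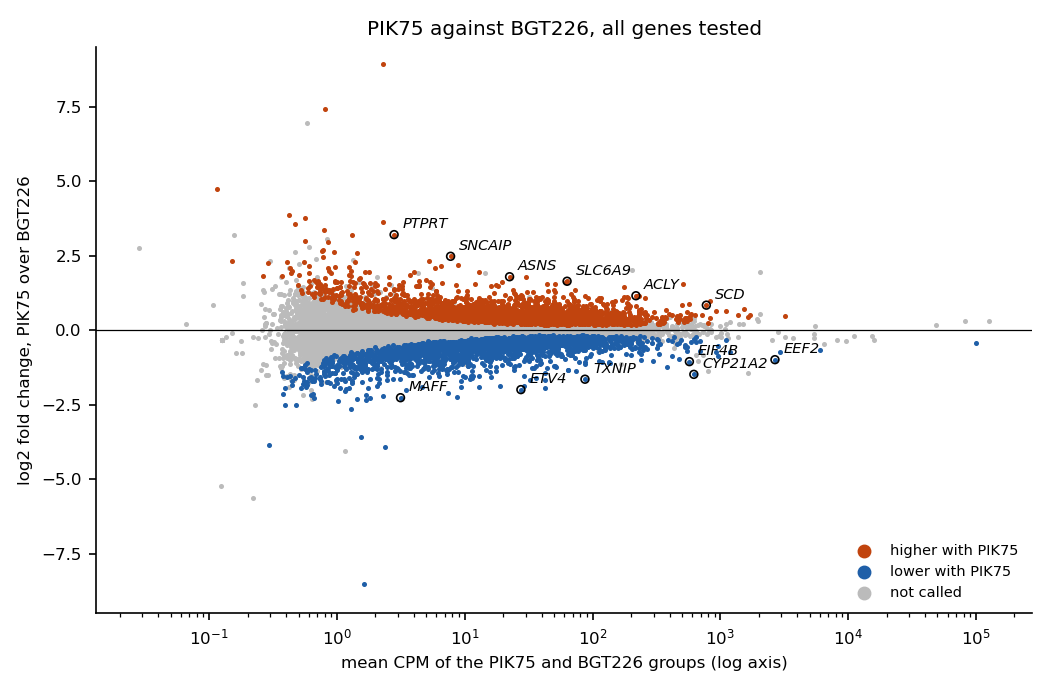
Each point is 1 of the 15787 genes tested. The x axis gives the mean level over the PIK75 and BGT226 libraries in CPM on a log axis, and the y axis the log2 fold change of PIK75 over BGT226. Of the genes, 2603 were called higher and 2442 lower; the most extreme fitted values belong to rarely counted genes with libraries at 0 and are no bounds.

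Against untreated cells the compounds were also unequal, as far as values set side by side can show. PIK75 over untreated cells gave 1340 genes higher (8.49%) and 1607 lower (10.2%), and BGT226 over untreated cells gave 2028 higher (12.8%) and 2485 lower (15.7%). These comparisons share the untreated libraries, and each shares libraries with PIK75 over BGT226, so their values are printed beside each other below and no agreement between them was computed. The genes higher with PIK75 than in untreated cells numbered 853 without untreated replicate 1. The genes met most often below are ASNS (ENSG00000070669.17, chromosome 7, 97852118 to 97872542), CYP21A2 (ENSG00000231852.8, chromosome 6, 32038265 to 32041670), HEXIM1 (ENSG00000186834.3, chromosome 17, 45148502 to 45152101), C6orf48 (ENSG00000204387.13, chromosome 6, 31834608 to 31839766), ETV4 (ENSG00000175832.13, chromosome 17, 43527844 to 43579620), TXNIP (ENSG00000265972.5, chromosome 1, 145992435 to 145996600), CDC20 (ENSG00000117399.14, chromosome 1, 43358955 to 43363203) and MVD (ENSG00000167508.12, chromosome 16, 88651935 to 88663161), with the IDs of the deposited table and GENCODE 29 positions on hg38.

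Among protein-coding genes called higher with a mean of at least 5 CPM and no overlap between the compounds, PTPRT had the largest difference. This receptor tyrosine phosphatase had 5.23, 5.04 and 4.90 CPM in PIK75 libraries, 0.690, 0.319 and 0.603 in BGT226 libraries and 0.984, 0.676 and 0.592 in untreated libraries (log2 fold change 3.21, SE 0.244, adjusted p = 5.98e-09). SNCAIP, which encodes a partner of alpha-synuclein, had 14.1, 12.1 and 13.2 CPM with PIK75, 2.37, 2.31 and 2.36 with BGT226 and 3.03, 2.43 and 2.96 untreated (log2 fold change 2.48, SE 0.156, adjusted p = 5.81e-10). In both genes every PIK75 library stood above all BGT226 and untreated libraries, and the log2 fold change over untreated cells was 2.73 and 2.23 with PIK75 against -0.47 (adjusted p = 0.38) and -0.25 (adjusted p = 0.36) with BGT226. KIRREL3, a cell adhesion molecule, was likewise high in PIK75 libraries only, with 11.4, 9.37 and 10.7 CPM with PIK75, 2.86, 2.39 and 2.04 with BGT226 and 2.19, 2.84 and 2.199 untreated (log2 fold change 2.15, SE 0.172, adjusted p = 1.2e-08). The calsyntenin CLSTN2 (2.32), the sarcomere protein MYOT (2.19), the transcription factor NFE2L3 (2.08) and the WNT antagonist DKK2 (1.85) were higher with PIK75 too, and in each BGT226 lay below untreated cells (log2 fold change -0.996, -1.54, -0.82 and -0.88). The glycine transporter SLC6A9 had the smallest adjusted p of all genes called higher, with 94.3, 95.01 and 97.8 CPM with PIK75, 29.1, 31.97 and 30.8 with BGT226 and 56.98, 58.96 and 57.1 untreated (log2 fold change 1.64, SE 0.0589, adjusted p = 1.9e-13). Follistatin FST, which binds activins, was 1.64 ± 0.171 (SE), and the readthrough gene NME1-NME2, whose reads cannot be separated from those of NME1 and NME2, was 1.94.

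The 4 largest falls among such genes were in MAFF, ASS1, FAXDC2 and YPEL2. The small MAF factor MAFF had 1.2, 1.10 and 0.930 CPM with PIK75, 5.72, 4.62 and 5.29 with BGT226 and 1.89, 1.49 and 2.28 untreated (log2 fold change -2.26, SE 0.242, adjusted p = 5.99e-07). ASS1, the argininosuccinate synthase of arginine synthesis, had 2.58, 3.15 and 3.47 CPM with PIK75, 14.2, 14.8 and 14.1 with BGT226 and 6.66, 7.44 and 6.34 untreated (log2 fold change -2.23, SE 0.176, adjusted p = 1.05e-08). PIK75 libraries thus lay lowest and BGT226 libraries highest of the 3 groups in both genes, without overlap, and ASS1 passed the test on both sides of untreated cells (-1.16 with PIK75, 1.07 with BGT226). The same order held for PRDM16, a zinc finger regulator (6.56, 4.88 and 4.65 CPM with PIK75, 19.1, 22.3 and 19.7 with BGT226, 11.4, 11.9 and 10.7 untreated), for the proton-sensing receptor GPR4 (-1.89) and for FAM107A (-1.87). By contrast FAXDC2 and YPEL2 were near untreated levels with PIK75 (log2 fold change -0.24, adjusted p = 0.453, and -0.22, adjusted p = 0.636) and higher with BGT226 (1.86 and 1.79). In the complement protease C1S it was PIK75 that stood off, with 5.16, 6.06 and 5.66 CPM with PIK75, 17.1, 16.9 and 17.2 with BGT226 and 17.7, 17.9 and 16.2 in untreated cells (log2 fold change -1.60, SE 0.113, adjusted p = 2.69e-09).

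Of genes that are not protein-coding, those called higher with PIK75 included SNAI3-AS1 (32.7, 31.1 and 38.97 CPM with PIK75, 12.02, 13.8 and 14.4 with BGT226, 18.7, 22.8 and 20.9 untreated; 1.34 ± 0.114, SE) and LINC00461 (147, 161 and 130.4 CPM with PIK75, 68.1, 73.7 and 74.2 with BGT226, 92.2, 87.6 and 82.1 untreated; 1.02 ± 0.0863). LINC00511 was lower (-1.63), with 5.53, 4.72 and 5.83 CPM with PIK75, 18.8, 15.9 and 15.5 with BGT226 and 9.31, 8.11 and 7.78 untreated. No overlap between the compounds was a condition of the rule that picked these 3 genes. The strand setting of the counting is not given, so reads of an antisense gene and of its partner cannot be told apart.

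ATF4 drives enzymes of amino acid synthesis, amino acid transporters and tRNA synthetases, and mTORC1 is known to raise ATF4 protein. Of 27 measured genes listed as its targets, 22 were higher and 3 lower with PIK75 (median 0.70), beside 16.5% higher and 15.5% lower and a median of 3.45e-05 over all genes tested. ASNS, which makes asparagine, had 34.4, 37.3 and 32.8 CPM with PIK75, 9.26, 10.5 and 10.2 with BGT226 and 26.4, 34.1 and 26.2 untreated (log2 fold change 1.79, SE 0.136, adjusted p = 5.54e-09). PYCR1, of proline synthesis, had 41.7, 48.3 and 48.3 CPM with PIK75, 15.3, 13.9 and 11.9 with BGT226 and 17.9, 20.8 and 18.01 untreated (log2 fold change 1.77, SE 0.101, adjusted p = 1.42e-10). ASNS with PIK75 thus overlapped untreated cells and BGT226 lay below both, whereas PYCR1 with PIK75 lay above both other groups.

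Enzymes of serine synthesis were higher with PIK75. PHGDH, the entry enzyme, had 240.3, 257 and 275 CPM with PIK75, 97.7, 91.9 and 92.6 with BGT226 and 170.2, 223 and 183 untreated (log2 fold change 1.45, SE 0.110, adjusted p = 5.22e-09), and PSAT1 (1.06), PSPH (0.82), SHMT2 (0.35) and MTHFD2 (0.82), the steps that lead on to glycine and formate, were called higher as well. CHAC1, which degrades glutathione, had 5.16, 6.69 and 7.44 CPM with PIK75, 1.48, 1.51 and 1.81 with BGT226 and 6.66, 8.32 and 6.26 untreated (log2 fold change 1.96, SE 0.186, adjusted p = 1.21e-07). Transporters of the list followed: the cystine carrier SLC7A11 (1.08), the leucine carrier SLC7A5 (0.70) and its partner SLC3A2 (0.60). The 3 members that were lower were transcription factors, ATF4 itself (84.6, 82.3 and 78.5 CPM with PIK75, 108, 117 and 113 with BGT226, 77.7, 82.5 and 79.3 untreated; -0.46 ± 0.0633, SE), DDIT3 (-0.88) and CEBPB (-0.28), the last of which lost its call in 4 of 13 alternatives. Over untreated cells the list had 4 higher and 3 lower with PIK75 (median 0.035), and 2 higher and 20 lower with BGT226 (median -0.64).

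Cytosolic tRNA synthetases, which charge tRNAs with amino acids, were higher with PIK75 in 14 of 20 genes and lower in 0 (median 0.45). MARS, for methionine, had 152, 153 and 154 CPM with PIK75, 75.99, 76.8 and 78.4 with BGT226 and 127, 156 and 128 untreated (log2 fold change 0.99, SE 0.0875, adjusted p = 4.81e-08). EPRS, for glutamate and proline, had 692, 799 and 735 CPM with PIK75, 406, 401 and 398 with BGT226 and 541, 673 and 544 untreated (log2 fold change 0.89, SE 0.0922, adjusted p = 4.28e-07). Neither gene overlapped between the compounds, and the PIK75 libraries of EPRS also lay above every untreated library. Next came VARS (0.84), GARS (0.81) and YARS (0.65). QARS, for glutamine, had the lowest value of the list, with no call (-0.20, 95% interval -0.40 to -0.0024, adjusted p = 0.116). Over untreated cells 4 were higher and 0 lower with PIK75, and 1 higher and 14 lower with BGT226.

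Start regions are shown for this list because ATF4 with a C/EBP partner is known to bind the letters TGATGCAA. RefSeq (GRCh38.p14) start regions, 250 bases before to 50 after the start, were matched for 16 of the 20 synthetases, and 6 of them (37.5%) held TGATGCAA on either strand (all motifs here were searched on both strands), against 51 of 11036 regions of tested genes (0.462%). The stretches of 40 bases are written along the gene's strand and the match is in capitals, TTGCATCA where it lies on the other strand. They are MARS (chr12:57488048-57488087, plus strand), IARS (chr9:92293687-92293726, minus strand), CARS (chr11:3057402-3057441, minus strand), AARS (chr16:70289670-70289709, minus strand), TARS (chr5:33440951-33440990, plus strand) and NARS (chr18:57621811-57621850, minus strand).
MARS: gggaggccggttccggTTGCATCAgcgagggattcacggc
IARS: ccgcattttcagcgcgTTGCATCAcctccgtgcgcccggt
CARS: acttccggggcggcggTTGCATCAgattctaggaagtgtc
AARS: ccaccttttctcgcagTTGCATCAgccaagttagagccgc
TARS: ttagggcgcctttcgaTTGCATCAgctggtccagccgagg
NARS: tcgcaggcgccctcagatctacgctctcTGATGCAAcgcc

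These 6 genes were all called higher with PIK75, from 0.25 for NARS, which lost its call in 3 of 13 alternatives, to 0.99 for MARS, with 0.61 for IARS, 0.58 for CARS, 0.57 for AARS and 0.55 for TARS. Of all 20 listed synthetases 14 were called higher. EPRS, VARS, GARS and YARS, which are not among these 6, had larger values than any of them but MARS. In the ATF4 target list, 1 of 20 matched regions (5%) held the letters. Of the 51 tested genes whose region held a match, 37.3% were higher and 15.7% lower. For the 38 of them in none of the lists, the shares were 23.7% and 18.4%, beside 18.2% and 15.7% of 10392 matched genes in none of the lists. A match is a description of letters, not a binding site or a cause.

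Sterol synthesis is controlled by SREBP factors, which mTORC1 is known to favour. Of 25 measured genes of cholesterol synthesis and uptake, 19 were higher with PIK75 and 0 lower (median 0.52). ACAT2, which makes acetoacetyl-CoA, had 77.04, 74.6 and 60.95 CPM with PIK75, 30.3, 27.6 and 26.9 with BGT226 and 92.5, 83.4 and 83.6 untreated (log2 fold change 1.33, SE 0.0825, adjusted p = 4.65e-10). MVD, which makes isopentenyl diphosphate, had 57.4, 57.2 and 76.7 CPM with PIK75, 23.8, 25.5 and 27.5 with BGT226 and 66.1, 83.1 and 72.9 untreated (log2 fold change 1.31, SE 0.131, adjusted p = 2.53e-07). In both, the PIK75 libraries lay well above the BGT226 libraries; they overlapped untreated cells in MVD and lay below them in ACAT2. LSS (1.11), which closes the sterol ring, FDPS (0.96), HMGCS1 (0.89) and IDI1 (0.76) were called higher as well. The regulator SREBF2 was not called (-0.017, 95% interval -0.17 to 0.14). Over untreated cells 0 were higher and 11 lower with PIK75 (median -0.22), and 0 higher and 21 lower with BGT226 (median -0.73).

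CCAAT, the letters that the factor NF-Y is known to bind beside SREBP in sterol promoters, stood on either strand in 15 of the 19 matched start regions of this list (78.9%), against 37.2% of the 11036 regions. The upstream stretches of the sterol genes MVD (chr16:88663152-88663311, minus strand), with 3 matches, and FDPS (chr1:155308646-155308805, plus strand), with 2, are shown as examples. CCAAT, or ATTGG where it lies on the other strand, is in capitals in the 160 bases.
MVD: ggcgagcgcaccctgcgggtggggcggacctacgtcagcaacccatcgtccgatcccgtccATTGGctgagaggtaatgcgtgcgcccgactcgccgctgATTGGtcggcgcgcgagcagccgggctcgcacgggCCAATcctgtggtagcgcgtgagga
FDPS: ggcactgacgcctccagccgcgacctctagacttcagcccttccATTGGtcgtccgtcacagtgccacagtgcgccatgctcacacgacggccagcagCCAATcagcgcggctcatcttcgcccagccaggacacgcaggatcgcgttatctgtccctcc

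FDPS, whose enzyme makes farnesyl diphosphate, had 188, 192 and 185 CPM with PIK75, 97.9, 100 and 93.9 with BGT226 and 283, 293 and 269.6 untreated (log2 fold change 0.96, SE 0.0811, adjusted p = 2.65e-08), the 3 groups in 3 separate ranges. The SREBP letters TCACCCCAC were found in 1 of the 19 regions (5.26%), against 0.39% of all, and in 0 of 12 regions of fatty acid genes. Of 4122 tested genes with CCAAT, 21.4% were higher and 15.7% lower, beside 19.2% and 16.2% of all matched genes.

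Fatty acid synthesis, the other branch under SREBP, had 8 of 13 genes higher and 0 lower (median 0.49). ACLY, which makes cytosolic acetyl-CoA from citrate, had 306, 294.8 and 304 CPM with PIK75, 134, 141 and 131 with BGT226 and 339, 405 and 347 untreated (log2 fold change 1.16, SE 0.0922, adjusted p = 1.18e-08). SCD, the stearoyl-CoA desaturase, had 1078, 1006 and 907 CPM with PIK75, 561, 548 and 561 with BGT226 and 1358, 1354 and 1345 untreated (log2 fold change 0.84, SE 0.0931, adjusted p = 9.73e-07). BGT226 libraries were lowest in both genes and untreated libraries highest, and the compounds did not overlap. ACSS2 (1.34), which makes acetyl-CoA from acetate, FASN (0.98), the synthase itself, and ACACA (0.64), which makes malonyl-CoA, were higher, while SREBF1 (0.19, 95% interval -0.013 to 0.39) was not called. Over untreated cells 0 were higher and 7 lower with PIK75, and 0 higher and 12 lower with BGT226.

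**Figure D2:**
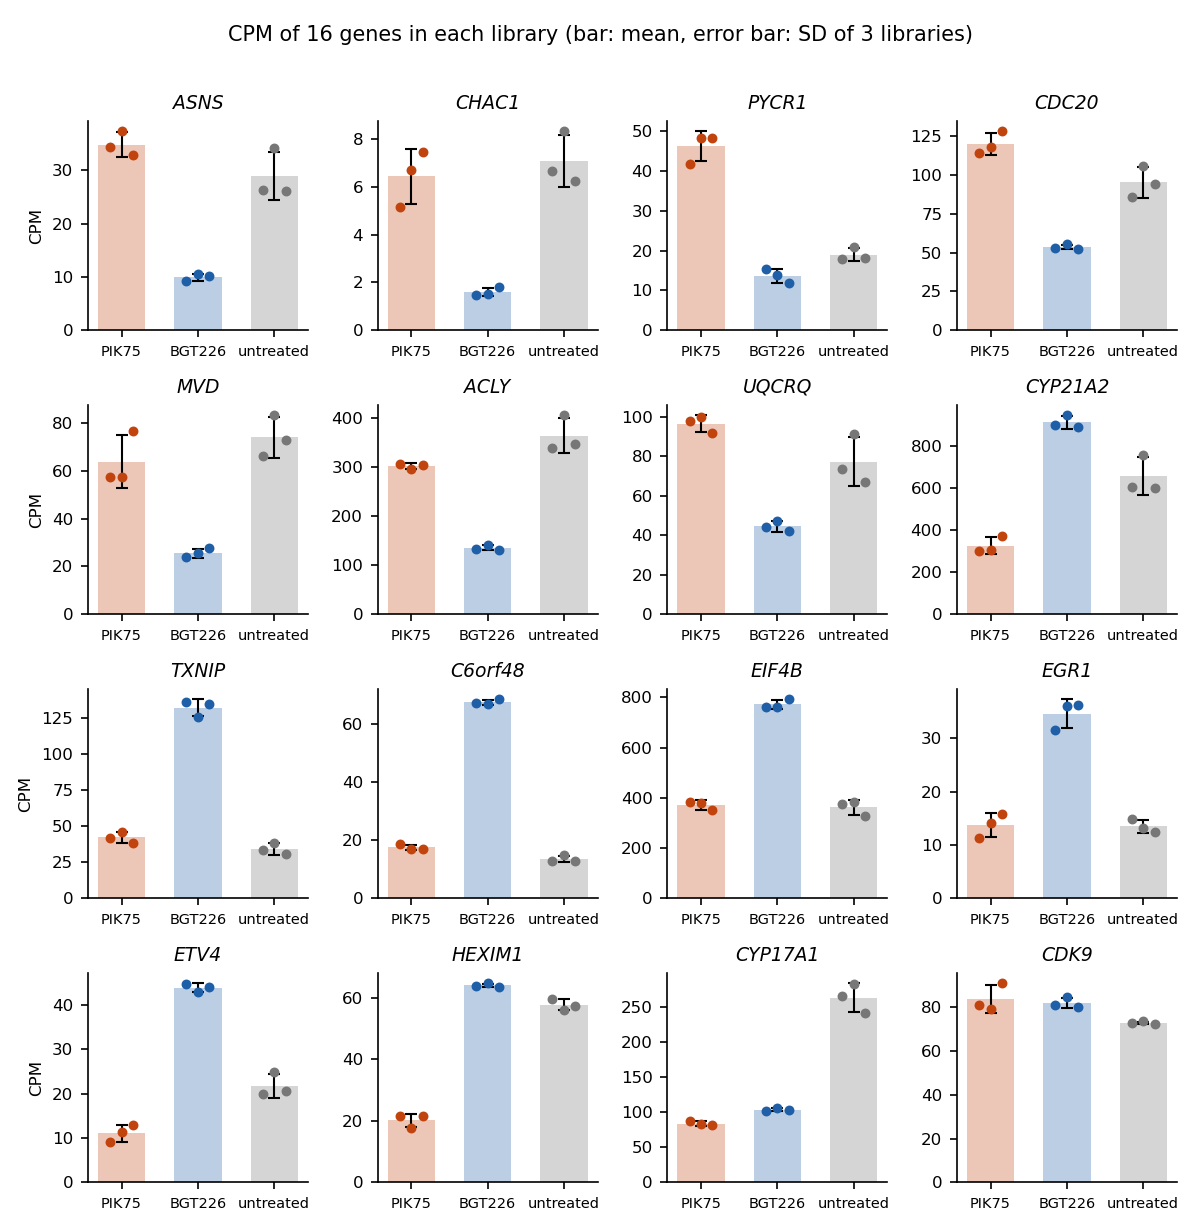
Levels of 16 genes in CPM (y axis, from 0) in PIK75, BGT226 and untreated cells. Points are the 3 libraries of a group, bars their mean and lines the SD; ASNS, MVD and ACLY are low with BGT226, C6orf48, EIF4B and TXNIP are high with BGT226, and HEXIM1 is low with PIK75.

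Messengers of ribosomal proteins and elongation factors begin with a C and a run of pyrimidines, and their translation and stability are known to be governed by mTORC1. Of 49 measured members, 28 were lower with PIK75 than with BGT226 and 1, RPL35 (0.43), was higher (median -0.38). Of 17 RNAs that host small nucleolar RNAs in their introns, 12 were lower and 1, SNHG17 (0.34, call lost in 6 of 13 alternatives), was higher (median -0.60). Start stretches are shown, 20 bases before to 20 after the RefSeq start (GRCh38.p14), with the tract that begins at the start in capitals, for EEF2 (chr19:3985444-3985483, minus strand), EIF4B (chr12:53006436-53006475, plus strand), TPT1 (chr13:45341164-45341203, minus strand), SNHG5 (chr6:85678714-85678753, minus strand), ZFAS1 (chr20:49278622-49278661, plus strand) and C6orf48 (chr6:31834896-31834935, plus strand; SNHG32 in RefSeq).
EEF2: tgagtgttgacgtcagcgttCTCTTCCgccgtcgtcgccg
EIF4B: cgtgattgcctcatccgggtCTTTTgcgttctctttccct
TPT1: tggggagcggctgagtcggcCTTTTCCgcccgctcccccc
SNHG5: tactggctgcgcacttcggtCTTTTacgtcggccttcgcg
ZFAS1: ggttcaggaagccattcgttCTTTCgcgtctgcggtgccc
C6orf48: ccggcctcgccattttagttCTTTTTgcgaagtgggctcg

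The stretches above were kept for display because a tract begins at their start. RPL4 and GAS5 were considered for display as well and had no stretch that met this condition. A C at the start followed by at least 4 pyrimidines was found in 27 of 37 matched regions of ribosomal protein and elongation factor genes (73%) and in 5 of 15 of snoRNA hosts (33.3%), against 5.28% of the 11036 regions. Of the 528 tested genes with such a tract in none of the lists, 14.4% were higher and 22.2% lower with PIK75, beside 18.2% and 15.7% of the 10392 matched genes in none of the lists. Their median was -0.04, against 0.02.

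EIF4B, a cofactor of the helicase of translation initiation, had 384, 381 and 351 CPM with PIK75, 764, 762 and 792 with BGT226 and 377, 384 and 329 untreated (log2 fold change -1.05, SE 0.0845, adjusted p = 1.22e-08). EEF2, the elongation factor that moves the ribosome along, had 1673, 1705 and 1999 CPM with PIK75, 3486, 3566 and 3618 with BGT226 and 1626, 1919 and 1547 untreated (log2 fold change -0.99, SE 0.108, adjusted p = 8.32e-07). For both genes the PIK75 and untreated libraries overlapped and the BGT226 libraries stood above them. TPT1 (-0.81), RPL28 (-0.86), EEF1A1 (-0.74), RPL4 (-0.73) and PABPC1 (-0.71) were lower too. EEF1A1 and several ribosomal protein genes have processed near copies, so their reads may be divided. Over untreated cells the list had 1 higher and 1 lower with PIK75, and 33 higher and 1 lower with BGT226.

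Among the snoRNA hosts, C6orf48 had 18.6, 17.1 and 17.1 CPM with PIK75, 67.4, 66.9 and 68.5 with BGT226 and 13.01, 14.9 and 13.02 untreated (log2 fold change -1.94, SE 0.0898, adjusted p = 1.41e-11). ZFAS1 had 12.8, 12.99 and 11.3 CPM with PIK75, 45.6, 45.5 and 45.4 with BGT226 and 9.76, 14.3 and 12.1 untreated (log2 fold change -1.88, SE 0.101, adjusted p = 8.74e-11). Every BGT226 library stood far above every PIK75 library in both, and ZFAS1 with PIK75 overlapped untreated cells. EPB41L4A-AS1 (-1.70), SNHG6 (-1.48) and SNHG5 (-1.01) were lower too. GAS5, whose spliced RNA is known to be degraded when it is translated, had 78.4, 79.8 and 70.5 CPM with PIK75, 159.8, 161 and 156 with BGT226 and 59.9, 65.3 and 61.1 untreated (log2 fold change -1.06, SE 0.0893, adjusted p = 2.47e-08). Counting strand matters for ZFAS1 and EPB41L4A-AS1, which start close to a gene on the other strand.

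Genes that build the ribosome are a list of their own. Of 35 ribosome biogenesis genes 12 were higher with PIK75 and 0 lower (median 0.094), and 6 were higher without BGT226 replicate 3. The rRNA methyltransferase NOP2 had 30.6, 29.2 and 31.03 CPM with PIK75, 20.4, 20.7 and 22.3 with BGT226 and 31.7, 33.2 and 31.5 untreated (log2 fold change 0.51, SE 0.0717, adjusted p = 1.64e-05). The pseudouridine synthase DKC1 (0.44) and BOP1 (0.96), of the large subunit, were higher, whereas FBL (0.0047, 95% interval -0.22 to 0.23) and NCL (-0.042, -0.37 to 0.29) were not called.

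FOXO factors enter the nucleus when AKT is inhibited and raise receptors and brakes of growth. Of 26 listed FOXO targets and receptors, 15 were lower and 4 higher with PIK75 (median -0.49). TXNIP, a brake on glucose uptake, had 41.8, 46.3 and 38.6 CPM with PIK75, 136, 126 and 135 with BGT226 and 33.7, 38.7 and 30.5 untreated (log2 fold change -1.64, SE 0.0836, adjusted p = 3.57e-11). The insulin receptor INSR had 69.7, 69.3 and 74.8 CPM with PIK75, 124, 122 and 127 with BGT226 and 87.8, 86.3 and 79.5 untreated (log2 fold change -0.81, SE 0.0645, adjusted p = 1.2e-08). The PIK75 libraries lay far below BGT226 in both; against untreated cells they lay slightly higher in TXNIP (0.30, adjusted p = 0.0208) and lower in INSR (-0.25, adjusted p = 0.0106). FOXO1 (-0.85) and FOXO3 (-0.92), the factors themselves, FOXO4 (-1.40), CREBRF (-1.36), TRIB2 (-1.02) and KLHL24 (-0.92) were lower. The 4 higher members were GRB14 (0.74), PDK4 (0.47), IRS2 (0.40) and SESN3 (0.39, call lost in 4 of 13 alternatives). IGF1R was not called (0.047, 95% interval -0.11 to 0.20). Over untreated cells 9 were higher and 3 lower with PIK75, and 15 higher and 2 lower with BGT226. GTAAACA, the core letters of FOXO sites, stood in 3 of 24 matched regions (12.5%), against 2.28% of all.

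The pathway's own components were mixed: 15 of 38 were higher and 6 lower (median 0.18), the lower ones 3 without PIK75 replicate 2. PIK3CA, which encodes the alpha catalytic subunit, had 6.86, 7.32 and 7.52 CPM with PIK75, 12.3, 9.65 and 10.1 with BGT226 and 9.76, 7.84 and 9.22 untreated (log2 fold change -0.55, SE 0.131, adjusted p = 0.00298). MTOR had 173, 173 and 182 CPM with PIK75, 125, 116 and 123 with BGT226 and 141, 154 and 143 untreated (log2 fold change 0.53, SE 0.0693, adjusted p = 6.42e-06). PIK75 libraries were the lowest of the 3 groups in PIK3CA and the highest in MTOR, in both cases without overlap with BGT226. AKT1 was higher (0.41 ± 0.0861, SE) and AKT2 was not called (-0.14, 95% interval -0.31 to 0.035). PIK3CB (-0.34) and the regulatory subunit PIK3R1 (-0.43) were lower, and PRKDC, which encodes DNA-PK's catalytic subunit, was higher (0.26, adjusted p = 0.0448). The calls of PIK3CB, PIK3R1 and PRKDC were lost in 5, 4 and 7 of 13 alternatives. PIK3R3, another regulatory subunit, was 0.70, and the repressor of cap-dependent translation EIF4EBP1 was 1.14, with 30.1, 33.7 and 39.7 CPM with PIK75, 14.9, 16.98 and 15.02 with BGT226 and 32.6, 33.00 and 30.6 untreated.

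Feedback regulators of the ERK pathway were lower with PIK75 in 10 of 14 genes and higher in 2 (median -0.63). ETV4, a transcription factor under ERK, had 9.07, 11.3 and 12.9 CPM with PIK75, 44.7, 42.9 and 44.1 with BGT226 and 19.8, 24.9 and 20.6 untreated (log2 fold change -1.99, SE 0.119, adjusted p = 2.55e-10). SPRY4, an inhibitor of receptor signalling, had 5.53, 6.85 and 5.58 CPM with PIK75, 18.04, 17.5 and 16.5 with BGT226 and 4.54, 6.15 and 5.58 untreated (log2 fold change -1.53, SE 0.127, adjusted p = 1.98e-08). ETV4 lay on opposite sides of untreated cells with the compounds (-0.99 with PIK75 and 1.01 with BGT226), while SPRY4 with PIK75 overlapped untreated cells. DUSP4 (-0.76) and DUSP6 (-0.69), phosphatases of ERK, and SPRED1 (-1.01) and SPRED2 (-0.81), inhibitors of RAS signalling, were lower. PHLDA1 was higher (0.85), with 82.2, 90.2 and 85.7 CPM with PIK75, 49.6, 47.4 and 46.6 with BGT226 and 43.5, 37.3 and 43.3 untreated, as was DUSP7 (0.24, call lost in 8 of 13 alternatives). Over untreated cells the list had 1 higher and 2 lower with PIK75, and 11 higher and 0 lower with BGT226.

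Immediate early genes, which respond to growth factors and to stress within minutes, were lower in 13 of 24 and higher in 4 (median -0.55). EGR1 had 11.3, 14.1 and 15.7 CPM with PIK75, 31.5, 36.04 and 36.2 with BGT226 and 14.8, 13.3 and 12.4 untreated (log2 fold change -1.35, SE 0.130, adjusted p = 1.53e-07), and FOS (-1.253), FOSB (-0.91), JUN (-0.92), JUNB (-0.77) and IER2 (-0.80) were lower. FOSL2 was an exception, with 131, 127 and 128 CPM with PIK75, 81.7, 79.3 and 81.2 with BGT226 and 42.9, 47.3 and 47.95 untreated (log2 fold change 0.67, SE 0.0648, adjusted p = 1.55e-07). Thus only BGT226 libraries stood high in EGR1, and FOSL2 was above untreated cells with both compounds and further with PIK75. NR4A3 (0.80), SRF (0.36) and NR4A1 (0.30, call lost in 5 of 13 alternatives) were also higher. MYC was not called (-0.088, 95% interval -0.28 to 0.11). TGACGTCA, the letters of the cyclic AMP element, stood in 2 of 19 matched start regions of the list (10.5%), against 3.25% of all.

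P-TEFb, the complex of CDK9 with a cyclin T, releases paused RNA polymerase and is held inactive by HEXIM1 on 7SK RNA. HEXIM1 had 21.5, 17.8 and 21.5 CPM with PIK75, 64.1, 64.7 and 63.6 with BGT226 and 59.8, 56.2 and 57.5 untreated (log2 fold change -1.66, SE 0.0841, adjusted p = 3.57e-11). Every PIK75 library was thus below all others, and BGT226 did not pass the test against untreated cells (0.15, adjusted p = 0.158). Of the list's 28 genes, HEXIM1 included, 6 were lower and 2 higher (median -0.064). Over all genes tested 15.5% were lower and 16.5% higher, 32.0% in either direction. CDK9 itself was not called, with 81.1, 79.2 and 90.97 CPM with PIK75, 81.2, 84.7 and 79.99 with BGT226 and 72.7, 73.6 and 72.4 untreated (0.031, 95% interval -0.11 to 0.17, adjusted p = 0.767). The bromodomain factor BRD2 was lower (-0.45 ± 0.0713, SE) and NELFE, of the pausing factor NELF, higher (0.55 ± 0.0830). The 7SK RNA, RN7SK, was lower (-0.44, adjusted p = 0.0115), a call lost in 2 of 13 alternatives. It was 1 of 9 measured abundant RNA polymerase III transcripts, of which 0 were higher and 1 lower.

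**Figure D3:**
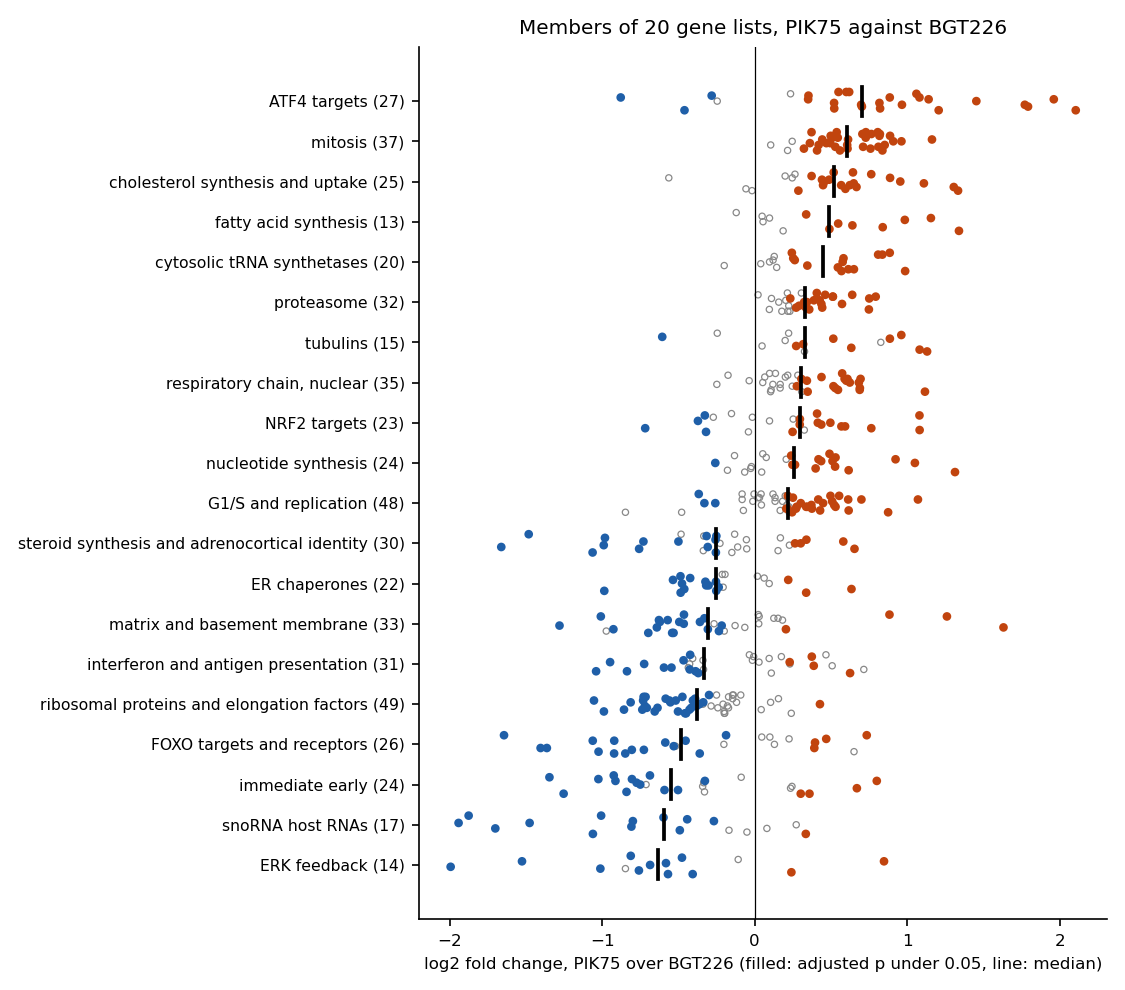
Members of 20 gene lists (rows) by their log2 fold change of PIK75 over BGT226 (x axis). Filled points are genes with an adjusted p under 0.05, open points are not called, and the line marks the list's median; mitosis has 34 filled points to the right of 0 and snoRNA host RNAs 12 to the left.

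Nearly all listed genes of mitosis were higher with PIK75. Of 37 mitotic genes 34 were higher and 0 lower (median 0.61), the largest share called in 1 direction among the 34 lists. CDC20, which activates the anaphase-promoting complex, had 114, 118 and 128 CPM with PIK75, 53.02, 55.3 and 52.4 with BGT226 and 85.9, 106 and 94.05 untreated (log2 fold change 1.16, SE 0.0865, adjusted p = 4.82e-09). BIRC5, of the chromosomal passenger complex, had 93.3, 101 and 91.9 CPM with PIK75, 49.7, 50.2 and 47.02 with BGT226 and 71.4, 86.1 and 71.04 untreated (log2 fold change 0.96, SE 0.0855, adjusted p = 4.91e-08). BGT226 libraries lay below the others in both genes, and PIK75 libraries lay above untreated ones. AURKA (0.91), CCNB1 (0.84), FOXM1 (0.81) and CDK1 (0.73) were higher, while MKI67, the proliferation antigen, was not called (0.11, 95% interval -0.13 to 0.34). Over untreated cells 17 were higher and 0 lower with PIK75 (median 0.25), and 0 higher and 25 lower with BGT226 (median -0.35).

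In the list of G1/S and replication genes 25 of 48 were higher and 3 lower (median 0.22). Cyclin D2, CCND2, had 159.8, 155 and 145 CPM with PIK75, 77.9, 71.6 and 69.8 with BGT226 and 96.8, 103 and 97.9 untreated (log2 fold change 1.07, SE 0.0707, adjusted p = 1.27e-09). POLD1 (0.88), of DNA polymerase delta, TK1 (0.70), the phosphatase CDC25A (0.61) and PCNA (0.45) were higher. The lower ones were the reductase subunit RRM2 (-0.26), CDK6 (-0.33) and cyclin E1, CCNE1 (-0.37), and RRM2 and CDK6 lost their calls in 5 and 6 of 13 alternatives. Cyclin D1, CCND1, was not called (-0.85, 95% interval -1.79 to 0.099, adjusted p = 0.165), with 0.295, 0.315 and 0.507 CPM with PIK75, 0.296, 0.957 and 0.696 with BGT226 and 0.0757, 0.203 and 0.169 untreated. Over untreated cells 2 were higher and 9 lower with PIK75, and 2 higher and 32 lower with BGT226.

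Of 24 nucleotide synthesis genes 14 were higher and 1 lower (median 0.26). CAD, which starts pyrimidine synthesis, had 235, 242 and 258 CPM with PIK75, 129, 132 and 126 with BGT226 and 136, 166 and 146 untreated (log2 fold change 0.92, SE 0.0890, adjusted p = 1.52e-07). The formate enzyme of mitochondria MTHFD1L (1.31) and the thymidylate synthase TYMS (0.62) were higher. Of 15 tubulin genes 8 were higher and 1, TUBB4A (-0.61), was lower (median 0.33); TUBA1A had 301, 311 and 345 CPM with PIK75, 147, 154 and 136 with BGT226 and 329, 419.9 and 318 untreated (log2 fold change 1.13, SE 0.111, adjusted p = 1.95e-07). Tubulin genes are near copies, so their reads may be divided. Replication-dependent histones, which can be counted in libraries of total RNA, had 1 of 19 genes higher, HIST1H1E (0.51, call lost in 2 of 13 alternatives), and 0 lower (median 0.12).

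Many subunits of the proteasome and the respiratory chain were higher with PIK75, most by small amounts. Of 32 proteasome subunits 21 were higher and 0 lower (median 0.33), with PSMB6, of the catalytic core, at 39.1, 41.8 and 54.6 CPM with PIK75, 27.1, 29.02 and 24.6 with BGT226 and 50.1, 54.6 and 45.2 untreated (log2 fold change 0.75, SE 0.107, adjusted p = 2.05e-05). Over untreated cells 16 subunits were lower with PIK75 and 32 with BGT226, and 0 and 0 were higher. Of 35 nuclear genes of the respiratory chain 18 were higher and 0 lower (median 0.31). UQCRQ, of complex III, had 98.1, 99.8 and 91.9 CPM with PIK75, 44.4, 47.4 and 42.1 with BGT226 and 73.8, 91.3 and 67.2 untreated (log2 fold change 1.12, SE 0.0955, adjusted p = 2.82e-08). In both genes no PIK75 library overlapped BGT226. The 13 messengers made in mitochondria had 0 calls higher and 0 lower (median -0.25). Over the alternatives 0 to 1 were higher and 0 to 4 lower, and the median ran from -0.404 to -0.0764. MT-CO1 was -0.32 (95% interval -0.68 to 0.039). All genes with an MT- symbol, not the 13 messengers alone, held 5.712% of the counts in PIK75 replicate 3. They held 8.737% and 7.827% in the other PIK75 libraries.

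Lists of stress responses were split. NRF2 targets were higher in 12 of 23 and lower in 4 (median 0.30): thioredoxin TXN had 50.6, 55.3 and 48.7 CPM with PIK75, 25.3, 24.8 and 23.2 with BGT226 and 42.7, 53.6 and 43.6 untreated (log2 fold change 1.08, SE 0.108, adjusted p = 2.48e-07), GCLM (0.77) and NQO1 (0.57) were higher, and OSGIN1 (-0.72) and GCLC (-0.37) lower. Of 32 heat shock chaperones 10 were higher and 2 lower (median 0.10), and 6 were higher without any 1 of the BGT226 replicates. HSPA4 was 0.80 and HSPA1A -0.58, whose reads are shared with its near copy HSPA1B. HSP90AB1, the constitutive target of STA9090, was not called (0.027, 95% interval -0.16 to 0.21). Chaperones of the endoplasmic reticulum were lower in 13 of 22 and higher in 3 (median -0.25); HSPA5, the main one, had 263, 255 and 289 CPM with PIK75, 372, 367 and 390.3 with BGT226 and 329.5, 318 and 299 untreated (log2 fold change -0.49, SE 0.0754, adjusted p = 5.18e-05), and HERPUD1, of the degradation machinery, was higher (0.64 ± 0.0613, SE). The NRF2 letters TGACNNNGC, in which N is any base, stood in 4 of 17 start regions of NRF2 targets (23.5%) and 6 of 27 of proteasome subunits (22.2%), against 15% of all.

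Genes of glycolysis and hypoxia were higher in 9 of 29 and lower in 4 (median 0.20). PGAM1 (0.71), ENO1 (0.67) and TPI1 (0.61), enzymes of glycolysis, were higher, and the glucose carrier SLC2A3 (-0.47) and NDRG1 (-1.73), at 0.737, 0.866 and 0.592 CPM with PIK75, 1.77, 2.39 and 2.97 with BGT226 and 1.36, 1.89 and 2.199 untreated, were lower. Of 40 lysosome and autophagy genes 10 were lower and 6 higher (median -0.084). GABARAPL1, which attaches to autophagosomes, had 32.1, 33.4 and 26.97 CPM with PIK75, 67.5, 66.9 and 76.7 with BGT226 and 48.3, 44.97 and 42.96 untreated (log2 fold change -1.19, SE 0.0896, adjusted p = 5.22e-09). The proteases CTSD (-0.59) and CTSA (-0.67) were lower and the factor MITF higher (1.0).

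In the BCL2 family 7 of 18 genes were lower and 4 higher (median 0.032). The higher count was unstable, at 0 to 2 when a library was left out, against 6 to 7 lower. The median ran from -0.022 to 0.0378 over the alternatives. HRK (-1.21), BMF (-0.82) and BCL2L11 (-0.51), which promote cell death, were lower, as was MCL1, which prevents it, at 125, 126 and 113 CPM with PIK75, 152, 151 and 153 with BGT226 and 151, 136 and 146 untreated (log2 fold change -0.33, SE 0.0753, adjusted p = 0.00231). BIK, a promoter of death, was higher (0.78), a call lost in 5 of 13 alternatives, and BAX was not called (0.11, 95% interval -0.12 to 0.35).

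Adrenal genes were mixed, with more called lower than higher with PIK75. Of 30 measured genes of steroid synthesis and adrenocortical identity 13 were lower and 5 higher (median -0.25). CYP21A2, the 21-hydroxylase of cortisol and aldosterone synthesis, had 300.1, 307 and 374 CPM with PIK75, 903, 947 and 889.7 with BGT226 and 607, 760.4 and 602 untreated (log2 fold change -1.48, SE 0.121, adjusted p = 1.48e-08). The groups were ordered PIK75, untreated and BGT226 without overlap, though reads of CYP21A2 are shared with its near-identical pseudogene and with the overlapping TNXB. INHA, the inhibin alpha subunit, was -1.66 ± 0.259 (SE), and the corticotropin receptor MC2R was -0.99 with its accessory protein MRAP at -1.06, a call lost in 6 of 13 alternatives. GATA6, a transcription factor of the cortex, had 13.2, 15.6 and 16.2 CPM with PIK75, 28.5, 30.1 and 30 with BGT226 and 21.4, 20.02 and 20.4 untreated (log2 fold change -0.98, SE 0.0894, adjusted p = 6.95e-08).

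CYP17A1, which turns the pathway to cortisol and androgens, was far below untreated cells with both compounds and differed by less between them. It had 87.1, 82.97 and 81.4 CPM with PIK75, 102, 106 and 104 with BGT226 and 266, 282 and 241 untreated (log2 fold change -0.31, SE 0.0818, adjusted p = 0.00674). STAR, the carrier of cholesterol into mitochondria, had 192, 186 and 204 CPM with PIK75, 213, 222 and 211 with BGT226 and 348, 387 and 335 untreated, with no call between the compounds (-0.15, 95% interval -0.31 to 0.013, adjusted p = 0.155). NR5A1, the master factor of the list, was not called either (-0.052, -0.30 to 0.19, adjusted p = 0.775). Among the higher members were HSD17B1 (0.65), LIPE (0.58), AGTR1 (0.34) and NR4A1. Over untreated cells 3 were higher and 15 lower with PIK75, and 7 higher and 10 lower with BGT226. AAGGTCA, the letters of NR5A1 sites, stood in 1 of the 21 matched start regions of the list (4.76%), against 2.58% of all.

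IGF2 was lower with PIK75, with 4682, 4341 and 5133 CPM with PIK75, 7398, 7339 and 7484 with BGT226 and 5405, 4609.5 and 4853 untreated (log2 fold change -0.65, SE 0.0906, adjusted p = 1.53e-05), and H19, the RNA of the same imprinted locus, was -1.27. PIK75 libraries of IGF2 overlapped untreated cells and BGT226 libraries stood above, with the caution that a readthrough gene shares its exons. In the list of WNT targets with this locus 8 of 19 were higher and 5 lower (median 0.25). The receptor-removing ligase ZNRF3 had 109.7, 115 and 113 CPM with PIK75, 65.5, 64.4 and 63.9 with BGT226 and 69.5, 68.9 and 73.6 untreated (log2 fold change 0.80, SE 0.0645, adjusted p = 1.23e-08), and ISM1 (1.08), TNFRSF19 (0.70), APCDD1 (0.61) and AXIN2 (0.50) were higher. NCI-H295R cells are known to carry an activating mutation of CTNNB1, whose transcript was not called (0.095, 95% interval -0.072 to 0.26).

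Matrix and basement membrane genes were lower with PIK75 in 18 of 33 and higher in 4 (median -0.31). COL18A1, a basement membrane collagen, had 18.9, 19.05 and 22.7 CPM with PIK75, 53.1, 46.96 and 47.3 with BGT226 and 37.1, 37.5 and 41.8 untreated (log2 fold change -1.28, SE 0.0887, adjusted p = 2.05e-09), and COL6A2 (-0.93) and the linker NID2 (-1.01) were lower. Tenascin TNC was higher, with 5.23, 5.20 and 4.57 CPM with PIK75, 1.68, 1.20 and 1.85 with BGT226 and 1.97, 1.62 and 2.28 untreated (log2 fold change 1.63, SE 0.204, adjusted p = 4.12e-06). The summed markers of fibroblasts, endothelium and leukocytes given above, of which COL1A1 is the most counted here at 5.97, 4.57 and 7.44 CPM with PIK75 and 7.98, 9.09 and 8.90 with BGT226, were low in all groups, and their part in these results was not tested. Of 31 interferon and antigen presentation genes 11 were lower and 4 higher (median -0.34). BST2, a tether of budding virus, had 19.9, 15.7 and 21.6 CPM with PIK75, 39.4, 39.5 and 38.5 with BGT226 and 37.2, 38.6 and 33.7 untreated (log2 fold change -1.04, SE 0.0967, adjusted p = 9.32e-08), and B2M was -0.43. HLA-C (-0.55) shares reads with other HLA genes.

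Clock genes were lower in 8 of 17 and higher in 3 (median -0.28). The repressor NR1D1 had 25.4, 21.3 and 26.5 CPM with PIK75, 52.4, 53.4 and 53.9 with BGT226 and 41.6, 39.6 and 41.4 untreated (log2 fold change -1.13, SE 0.0868, adjusted p = 7.09e-09), DBP was -0.66, and NFIL3, which opposes DBP, was 0.94. Among 9 measured neuroendocrine markers 0 were higher and 3 lower, SYP (-0.61), SYT1 (-1.65) and NCAM1 (-0.25, call lost in 4 of 13 alternatives), and CHGA was not called (-0.047, 95% interval -0.75 to 0.66). CACGTG, the letters bound by the CLOCK and BMAL1 pair, stood in 4 of 17 start regions of clock genes (23.5%), against 10.3% of all.

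**Figure D4:**
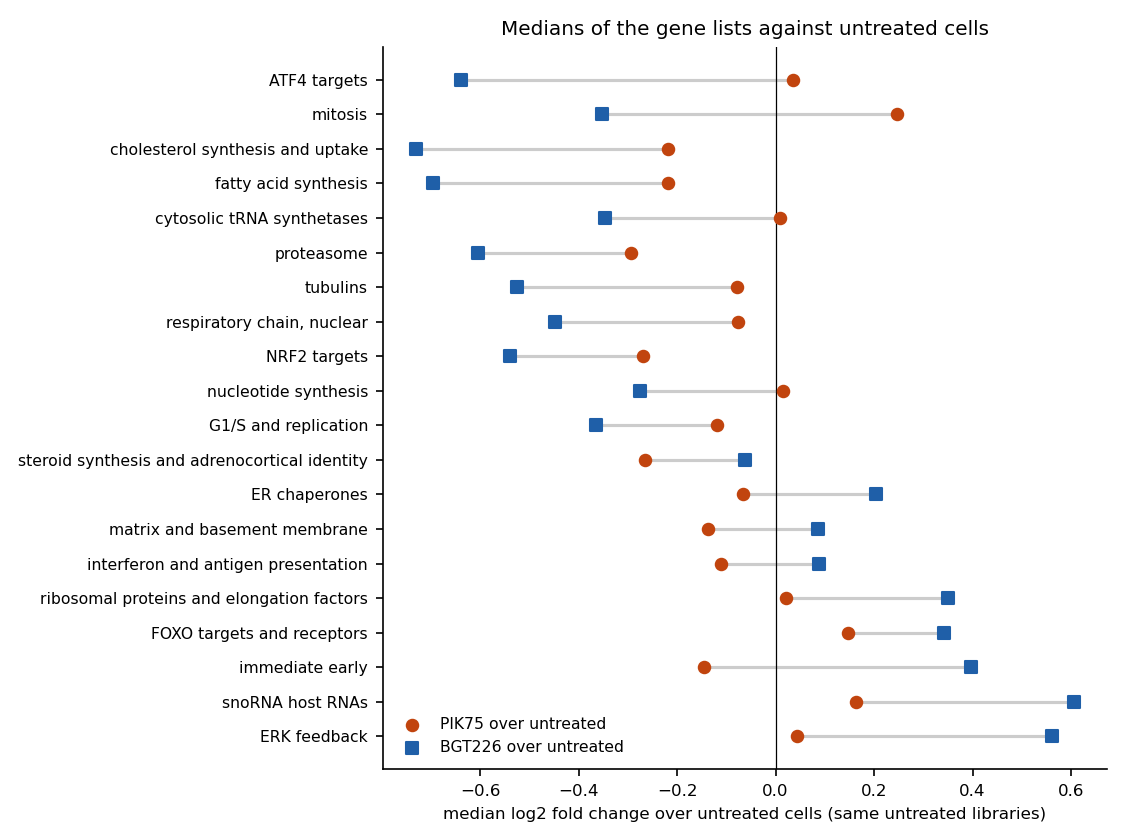
Medians of 20 gene lists (rows) as log2 fold change over untreated cells (x axis), for PIK75 (circles) and BGT226 (squares). Both share the 3 untreated libraries; for ATF4 targets the median is 0.035 with PIK75 and -0.64 with BGT226, and for snoRNA host RNAs 0.16 and 0.61.

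Side by side over untreated cells, the medians were 0.035 with PIK75 and -0.64 with BGT226 for ATF4 targets, 0.0088 and -0.35 for synthetases, and 0.021 and 0.35 for ribosomal proteins and elongation factors. HEXIM1 and BST2 had the other pattern, with log2 fold changes over untreated cells of -1.51 and -0.94 with PIK75 and of 0.15 and 0.099 with BGT226. At a single stated dose these values do not give the compounds' relative strength.

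The contrast was repeated in other libraries, those of cells that also had STA9090. STA9090+PIK75 over STA9090+BGT226 gave 3306 genes higher (20.9%) and 3530 lower (22.4%). Of the 2603 genes higher with PIK75 alone, 1710 (65.7%) were higher and 76 (2.92%) lower with STA9090, and the 1710 made 51.7% of those higher with STA9090. Of the 2442 lower genes 1650 (67.6%) were lower and 30 (1.23%) higher, and the 1650 made 46.7% of those lower with STA9090. Over the 5045 genes called without STA9090 the log2 fold changes of both contrasts had a correlation of 0.803, and over all genes tested 0.584; both are a description across genes, which are not independent.

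With STA9090 the counts of higher and lower genes, in that order, were as follows for 9 lists: mitosis (28 and 0), the proteasome (30 and 0), the respiratory chain (22 and 0), ATF4 targets (21 and 2), snoRNA hosts (1 and 10), cholesterol synthesis and uptake (14 and 4), ribosomal proteins and elongation factors (7 and 20), chaperones of the endoplasmic reticulum (6 and 7) and interferon and antigen presentation genes (6 and 7). Without STA9090 the last 4 had 19 and 0, 1 and 28, 3 and 13, and 4 and 11, so each had fewer genes called in its leading direction, and more against it, with STA9090. TXNIP had 43.6, 46.5 and 45.6 CPM with STA9090+PIK75 and 158, 143 and 143 with STA9090+BGT226 (log2 fold change -1.71, against -1.64 without STA9090). C6orf48 had 20.4, 20.6 and 19.6 CPM with STA9090+PIK75 and 67.1, 81.6 and 70.9 with STA9090+BGT226 (-1.86, against -1.94). HEXIM1 had 27.9, 25.3 and 23.7 CPM with STA9090+PIK75 and 71.7, 59.8 and 67.6 with STA9090+BGT226 (-1.38, against -1.66). The combinations did not overlap in any of these 3 genes.

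For 959 genes (6.07%) the log2 difference between the compounds was higher without STA9090 than with it, and for 580 (3.67%) lower, by the test of the difference itself. The first count was 617 without BGT226 replicate 3, and the second 379 without that library, 374 without BGT226 replicate 2 and 357 without STA9090+PIK75 replicate 1. The difference was called for 18 of 33 matrix genes, 14 of 30 adrenal genes, 13 of 48 replication genes and 10 of 32 heat shock chaperones. These lists had the largest counts, not in each case the largest shares. It was called for 8 of 20 tRNA synthetases, 9 of 27 ATF4 targets and 7 of 22 chaperones of the endoplasmic reticulum. At the low end were 1 of 40 lysosome and autophagy genes and 0 of 18 BCL2 family genes. COL18A1 had 7.77, 9.35 and 7.33 CPM with STA9090+PIK75 and 47.9, 48.3 and 43.97 with STA9090+BGT226, a log2 fold change of -2.52 against -1.28 without STA9090 (adjusted p of the difference = 1.36e-05). CYP17A1 had 55.6, 51.1 and 53.4 CPM with STA9090+PIK75 and 159, 148 and 140.0 with STA9090+BGT226, a log2 fold change of -1.48 against -0.31 (adjusted p of the difference = 5.38e-06). In both genes the compounds lay further apart with STA9090. EGR1 had 43.6, 37.4 and 36.04 CPM with STA9090+PIK75 and 42.98, 50.03 and 37.1 with STA9090+BGT226, where the groups were no longer called apart (-0.15, adjusted p = 0.31; adjusted p of the difference = 0.000192). ASNS had 62.9, 61.7 and 61.9 CPM with STA9090+PIK75 and 12.1, 7.70 and 8.87 with STA9090+BGT226 (2.71, adjusted p of the difference = 0.00444). Adrenal genes as a list were lower with STA9090+PIK75 in 20 and higher in 3 (median -0.73), and matrix genes lower in 25 and higher in 5 (median -0.85).

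**Figure D5:**
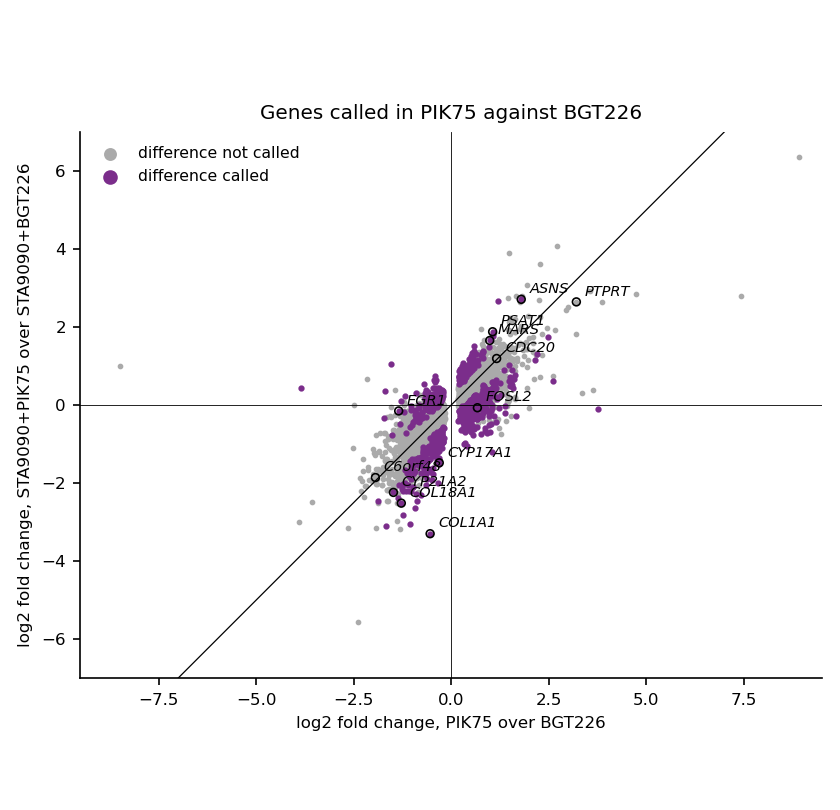
The 5045 genes called between PIK75 and BGT226, by their log2 fold change without STA9090 (x axis) and with STA9090 (y axis). Purple points are genes whose difference between the contrasts was called; COL18A1 and CYP17A1 lie further from 0 with STA9090 and EGR1 and FOSL2 lie near 0 there.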

How the data were processed

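Expected counts per gene were estimated with RSEM 1.3.1 after alignment to hg38 with STAR 2.7.0f, and bcl2fastq 2.20 and cutadapt 1.18 were also used, per the submitters' processing notes; the sources used here give no settings, annotation release or counting strand. In the table that the authors deposited, these expected counts are not normalized and cover 18 libraries of 10.24 to 21.13 M counts each. Counts were rounded, which moved a library's total by at most 0.000381%. Genes passing filterByExpr (minimum count 10, minimum total 15) were fitted in edgeR 4.0.16 (R 4.3.3, limma 3.58.1) with TMM scaling (factors 0.9034 to 1.132), 1 mean for each of the 6 groups and all 18 libraries in 1 model, by the quasi-likelihood test with Benjamini-Hochberg adjustment over all genes tested and a threshold of 0.05. The biological coefficient of variation was 10.58%. The standard error is the log2 fold change over the root of F. The fit of PIK75 over BGT226 was tested on simulated counts, and the counting of list members was not.

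Of the gene IDs, 99.54% matched GENCODE 29 without their version, and 97.98% of symbols were equal. The members and the 34 lists (910 genes, 839 measured) were chosen with earlier results of these data known. The rule for named genes took, for PIK75 over BGT226, the 15 largest rises and falls of protein-coding genes that were called, did not overlap and had a mean of at least 5 CPM in the higher group, 5 each way of other genes, up to 4 members of each list by adjusted p, and a few set genes of the pathway and the adrenal cortex. Other list members in the text were chosen after their values were seen, and some genes of the rule and the lists are not reported here. Lists are described by counts and medians, with no test. Alternatives were DESeq2 1.42.0, its size factors, both other filters (none, or 1 CPM in 3 libraries), a replicate block, fits of only the groups compared, omission of the 50 genes with most counts, and omission of each library in turn. The 3 libraries of STA9090 alone were in none of the comparisons. They entered the count filter, the TMM scaling and the estimate of the spread.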

Additional observations from a re-analysis of the deposited data

Results flagged for a closer look

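The test of the difference between the compounds' contrasts without and with STA9090 (edgeR's quasi-likelihood test, Benjamini-Hochberg adjustment over all genes) called 58 of the genes given above, at adjusted p from 5.38e-06 to 0.0494. Each value in brackets is the log2 fold change of PIK75 over BGT226 without STA9090 minus that of STA9090+PIK75 over STA9090+BGT226, from 3 libraries a group. It was above 0 in 32 genes and below 0 in 26. COL1A1 had the largest value, at low counts, and CYP17A1 the smallest adjusted p. Over 19 alternatives, 30 of the 58 lost no call and 28 lost it in at least 1, with 0 reversed: ACACA, ACSS2, B2M, CDC25A, COL6A2, CTNNB1, DDIT3, DUSP4, FAM107A, GARS, HMGCS1, HSPA5, INHA, KIRREL3, MTHFD2, MYOT, NCAM1, NDRG1, NOP2, NR4A3, PHLDA1, PRKDC, PSMB6, SLC2A3, SLC7A11, SNCAIP, YARS and ZNRF3 lost it somewhere. Most losses came with fewer libraries: 23 of the 58 were lost without BGT226 replicate 3, 19 without BGT226 replicate 2, 19 without STA9090+PIK75 replicate 1, and 10 with no filter on low counts.

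In 15 of the 32 genes both contrasts were below 0, and the value with STA9090 lay further below: CEBPB (0.54), COL18A1 (1.23), COL1A1 (2.76), COL6A2 (0.45), CYP17A1 (1.17), CYP21A2 (0.76), FAM107A (0.58), FOXO1 (0.62), GATA6 (0.55), INHA (1.44), MC2R (1.11), NCAM1 (0.41), NR1D1 (0.61), SREBF2 (0.46) and STAR (0.53). In 12 both contrasts were above 0, and further above without STA9090: ACACA (0.40), ACSS2 (0.43), APCDD1 (0.43), HMGCS1 (0.47), ISM1 (0.63), KIRREL3 (0.99), LSS (0.57), MYOT (0.89), NR4A3 (0.38), PHLDA1 (0.35), SNCAIP (0.74) and ZNRF3 (0.30). In 5 the estimates were above 0 without STA9090 and below 0 with it: AGTR1 (0.68), CTNNB1 (0.39), FOSL2 (0.74), IGF1R (0.44) and PRKDC (0.51).

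In 12 of the 26 genes both contrasts were above 0, and further above with STA9090: AARS (-0.39), ASNS (-0.91), CARS (-0.80), CDC25A (-0.47), GARS (-0.39), MARS (-0.67), MTHFD2 (-0.55), NOP2 (-0.39), PSAT1 (-0.82), PSMB6 (-0.54), SLC7A11 (-0.68) and YARS (-0.41). In 11 both contrasts were below 0, and further below without STA9090: ATF4 (-0.40), B2M (-0.39), DDIT3 (-0.59), DUSP4 (-0.54), EGR1 (-1.19), EIF4B (-0.50), HSPA5 (-0.36), NDRG1 (-1.40), SLC2A3 (-0.38), SNHG5 (-0.50) and SPRY4 (-0.75). FOSB (-1.21), HLA-C (-0.76) and HSPA1A (-0.93) were below 0 without STA9090 and above 0 with it. These genes were already named for other reasons, so how often each sign occurs among them describes the choice of genes as well as the data.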

How the results depend on the processing

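With PIK75 over BGT226, 2393 genes were higher and 2088 lower by DESeq2, 2639 and 2397 with its size factors, 2701 and 2628 with only the groups compared in the fit, and 2505 and 2538 with the 50 most counted genes left out. Leaving out each library in turn gave 1922 to 2278 higher and 1829 to 2112 lower. The same range was 853 to 1257 higher and 1222 to 1390 lower for PIK75 over untreated cells, 1414 to 1647 and 1850 to 2242 for BGT226 over untreated cells, 2893 to 3107 and 2951 to 3255 for STA9090+PIK75 over STA9090+BGT226, and 617 to 874 and 357 to 566 for the difference between backgrounds. With only the groups compared in the fit, 1066 genes were lower with PIK75 than in untreated cells; that fit has fewer samples, and the cause was not tested. Of the 513 genes called between the compounds that were named by the rule or listed, 401 lost no call and 0 changed direction in the alternatives that gave them a value, which were all 13 for 500 of them and at least 11 for the other 13. Of the 34 lists, the medians of ATF4 targets ran from 0.667 to 0.77 over the alternatives, and those of the adrenal list from -0.27 to -0.146. The median crossed 0 for replication-dependent histones (-0.0731 to 0.19), neuroendocrine markers (-0.178 to 0.139) and markers of fibroblasts, endothelium and leukocytes (-0.719 to 0.11). It did so for the BCL2 family too, as given above.

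Replicate numbers are shared between groups, and the labels do not say what a number stands for. The deviations of same-numbered PIK75 and BGT226 libraries had correlations of -0.0109, -0.03 and -0.00597 over the genes tested. These values do not decide whether same-numbered samples shared a culture or a day, and no pairing was assumed. A replicate block gave 2566 genes higher and 2406 lower with PIK75 over BGT226, 1267 and 1534 with PIK75 over untreated cells, 1971 and 2437 with BGT226 over untreated cells, 3275 and 3466 for the combinations, and 904 and 534 for the difference. With 3 libraries a group and 10.24 to 21.13 M counts each, rarely counted genes have wide intervals. The agents were given at 1 dose and 1 time, and libraries measure transcripts, so proteins and kinase activity are outside these values.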

Other observations

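Some genes with few counts differed widely between the compounds and were chosen after their values were seen. IGF1, a ligand of the IGF receptor, had 1.77, 1.181 and 1.44 CPM with PIK75, 0.0986, 0.160 and 0.139 with BGT226 and 0.757, 0.879 and 0.0846 in untreated cells (log2 fold change 3.35, SE 0.565, adjusted p = 0.000126 by edgeR). The PIK75 libraries of IGF1 stood above all BGT226 and untreated libraries, and the untreated libraries were spread widely. Noggin NOG, which binds bone morphogenetic proteins, had 2.43, 2.52 and 2.11 CPM with PIK75, 0.296, 0.160 and 0.278 with BGT226 and 0.530, 0.473 and 0.0846 in untreated cells (3.21, SE 0.407). ITIH3, which encodes a chain of the inter-alpha-trypsin inhibitor, had 0.590, 0.157 and 0.0845 CPM with PIK75, 4.93, 4.07 and 4.41 with BGT226 and 0.454, 0.676 and 0.423 in untreated cells (-3.91, SE 0.434). With STA9090 the log2 fold changes were 0.31 for IGF1, 1.81 for NOG and -2.99 for ITIH3.

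The 13009 protein-coding genes tested were also placed in 10 bins of equal size by their total exonic length in GENCODE 29. The median log2 fold change of PIK75 over BGT226 was 0.181 in the bin of the shortest genes (up to 2191 bases) and -0.0702 in the bin of the longest (from 10806 bases). Of the shortest bin 27.1% were higher and 7.99% lower, and of the longest 13.1% were higher and 25.0% lower. With STA9090 the medians were 0.28 and -0.208. Over untreated cells the medians for PIK75 were -0.026 in the shortest bin and -0.0068 in the longest, and those for BGT226 were -0.193 and 0.076. Whether length moves with the lists above was not tested.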
